A study of Mus musculus with 28 samples.

Results

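The mRNA response of MN1 cells to a disease mutant of TDP-43 was followed here in 4 total mRNA libraries, out of 28 libraries in the series. They were chosen by their labels, as the MN1 total mRNA libraries transfected with hTDP-43 A315T (2 cultures) or with GFP as the control (2 cultures). MN1 is a mouse cell line, a clonal hybrid of spinal motor neurons and neuroblastoma cells, used at passage 10 to 12. Both groups were transiently transfected with a plasmid, and both received, per the labels, 100 µg/ml cycloheximide, an inhibitor of translation elongation, for 3 min before lysis. The hTDP-43 A315T plasmid carried the human coding sequence between a FLAG and a V5 tag under a CMV vector, so that every library is a transfected pool of 1 cell line, in which the share of transfected cells was not measured here. In the rest of the study, footprints, the pieces of mRNA shielded by ribosomes during nuclease digestion, were sequenced beside total mRNA, further MN1 cultures received wild-type hTDP-43, and cortical neurons of transgenic mice were profiled. The comparison asked which mRNAs change in level with the mutant protein, as the background against which the study read changes in translation.

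TDP-43 is an RNA-binding protein of the hnRNP family that acts in splicing, transport and stability of many mRNAs, including its own. It is mostly nuclear, and in most amyotrophic lateral sclerosis (ALS) and in part of frontotemporal dementia (FTD) it is lost from the nucleus and found in cytoplasmic inclusions. A315T, an alanine to threonine exchange in the glycine-rich C-terminal domain, is a rare inherited cause of ALS. TDP-43 lowers its own mRNA through the 3′ untranslated region, and the plasmid was made from the coding sequence alone.

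The transfected gene was looked at first. Levels are given as CPM, the reads of a gene scaled to a common library total with TMM factors (trimmed mean of M values), in the order replicate 1 and replicate 2 of each group. Reads assigned to Tardbp, the mouse gene of TDP-43 (chr4:148612382-148627019, GRCm38), were at 302 and 263 CPM with GFP and at 480 and 442 CPM with hTDP-43 A315T. Both A315T libraries were thus above both GFP libraries, by a log2 fold change of 0.71 ± 0.09 (SE, n = 2 per group, adjusted p = 1.13e-05, edgeR's quasi-likelihood test with the replicate number as a block). Larger was the change of Gm13886 (chr2:104820179-104821361), a processed pseudogene of Tardbp. It had 0 and 5 reads in the GFP libraries and 293 and 173 reads in the A315T libraries, and its fitted log2 fold change was 6.14 ± 0.34 (adjusted p = 6.64e-14). In GFP replicate 1 a count of 0 allows up to 2.05 CPM.

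Gm13886 aligned to the Tardbp transcript over its whole length of 1183 bases with 94.2% identity, from within the coding part to the stop codon. To show where these mouse genes differ, the ungapped stretch of 30 coding bases with the most differences is given. Differing bases are in capitals, and both are written 5′ to 3′ on the sense strand. The human sequence of the plasmid was not aligned, so the stretch does not tell which reads make up the change at Gm13886. The Gm13886 stretch lies at chr2:104820543-104820572 (plus strand) and the Tardbp stretch at chr4:148620692-148620721 (minus strand), and they differ at 5 of the 30 bases.
Gm13886: tcttaaaactTgCcactcAGaagggtttgA
Tardbp: tcttaaaactGgTcactcGAaagggtttgG
Reads of the human coding sequence were mapped to the mouse genome with mismatches allowed, so counts at both mouse genes can hold reads of the plasmid, and endogenous Tardbp mRNA cannot be told apart from it in these counts. The hTDP-43 libraries had 132 and 104 reads at Gm13886, and there hTDP-43 was above GFP by 5.81 at Gm13886 and by 0.72 at Tardbp on the log2 scale. Reads at both genes were thus higher with either protein than with GFP, and A315T minus hTDP-43 was 0.33 at Gm13886 (adjusted p = 0.398) and -0.02 at Tardbp (adjusted p = 0.976).

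The 4 libraries held 1462713 to 2988339 reads assigned to genes, of which 93.1% to 95.3% fell on protein-coding genes, and 3 reads corresponded to 1.00 to 2.05 CPM. The cell line's label was checked with marker genes. The 10 markers of sympathoadrenal neuroblastoma summed to 2001 to 2417 CPM, led by Hand2 at 1029 to 1338 CPM and Phox2a at 405 to 447 CPM. The 7 motor neuron markers summed to 64.5 to 92.0 CPM, with Isl1 at 29.96 to 45.5 CPM and Slc18a3, the vesicular acetylcholine transporter, at 18.8 to 37.0 CPM, while Mnx1 and Chat stayed under 3 CPM. The 10 general neuron markers summed to 591 to 681 CPM. Astrocyte markers summed to at most 3.36 CPM, microglial to at most 12.9 CPM, and oligodendrocyte or Schwann cell, fibroblast and endothelial markers to at most 16.1 CPM in any library. No marker of any of these 8 cell types passed the test. In bulk RNA, fewer cells with a transcript and less of it per cell cannot be told apart, and the share of transfected cells is part of every value below.

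Of 10361 genes tested, 283 (2.73%) passed an adjusted p of 0.05 in the fit with the replicate block, 109 (1.05%) that rose and 174 (1.68%) that fell with hTDP-43 A315T. The rises had a median size of 0.44 and the falls of 0.60 on the log2 scale. At both culture dates 109 of the 109 rises and 173 of the 174 falls had the same sign, beside 6369 of all 10361 genes tested. Among the genes that rose, 102 had both A315T libraries above both GFP libraries, against 18.6% of all genes tested. Among those that fell, 137 had both below, against 17.8%. The calls were made on these same 4 libraries, so these counts are no separate support for them. The count of genes rested on the block. Without it 1 gene passed, Gm13886 (0.00965%, with 548 genes at an unadjusted p under 0.05), and DESeq2 with the block called 3, Rnf157, Kl and Fchsd2 (0.029%, with 172 genes at an unadjusted p under 0.05). A fit that also held the hTDP-43 libraries called 112 genes with the block (1.09%), 112 of them among the 283. GFP replicate 1 stood apart from the other 3 libraries in base composition and in ribosomal RNA fragments, as given below, and without it the 6-library fit called 63 genes, 37 that rose and 26 that fell (0.345% and 0.242%), of which 47 were among the 283. Of the 92 genes singled out by the naming rule, 62 lost their call without that library.

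**Figure D1:**
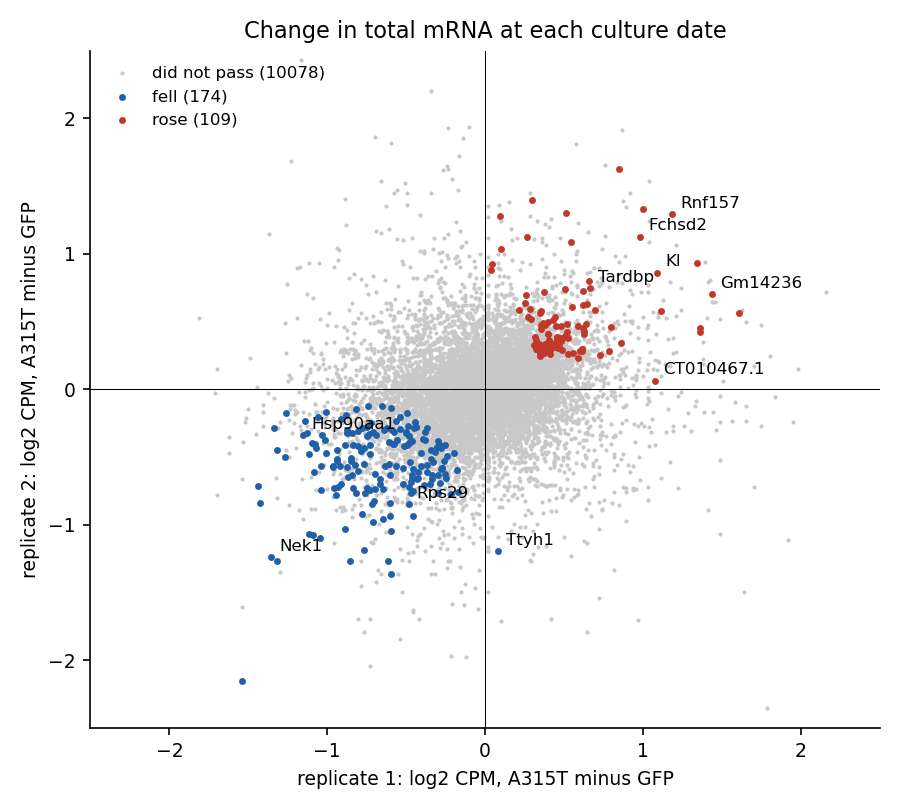
Log2 CPM of hTDP-43 A315T minus GFP for each gene at the date of replicate 1 (horizontal) and of replicate 2 (vertical), with genes that rose in red, that fell in blue and that did not pass in grey. The 174 falls sit in the lower left apart from Ttyh1, the 109 rises in the upper right, and 3 genes, Gm13886 among them, lie beyond 2.5 and are not drawn.

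Among the largest rises were 3 protein-coding genes whose change was found at both dates. Rnf157, a RING-type ubiquitin ligase of neurons, was at 66.5 and 123 CPM with GFP and at 152 and 302 CPM with A315T. Its log2 fold change was 1.26 ± 0.11 (adjusted p = 8.79e-09), and within dates it was 1.18 and 1.29. Kl, which encodes klotho, a coreceptor of fibroblast growth factor 23, was at 84.7 and 163 CPM with GFP and at 182 and 297 CPM with A315T (log2 fold change 0.96 ± 0.11, adjusted p = 9.46e-07). Levels of Rnf157 and Kl at replicate 2 exceeded those at replicate 1 in both groups, so that each is read against its own date. Footprint levels of both genes were far above these, as given below, and what reads make them up was not tested. Fchsd2, an F-BAR domain protein that acts on actin at the membrane, had 79.3 and 83.3 CPM with GFP and 158 and 183 CPM with A315T, and the groups did not overlap (1.07 ± 0.12, adjusted p = 9.46e-07). Dach1, a transcriptional regulator, had 22.2 and 13.2 CPM with GFP and 32.0 and 33.8 CPM with A315T (0.93 ± 0.25, adjusted p = 0.0365). Rnf157, Kl and Fchsd2 passed also without GFP replicate 1 and with offsets for base composition, while Dach1 failed without that library (adjusted p = 0.0818).

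Other rises were smaller. Tmprss11a, among the highest expressed genes that rose and annotated as a transmembrane serine protease, had 1097 and 1010 CPM with GFP and 1396 and 1196 CPM with A315T, which gave 0.30 ± 0.08 (adjusted p = 0.0438). Soga1 had nearly the same rise at both dates, from 132 and 130 CPM to 204 and 201 CPM (0.62 ± 0.10, adjusted p = 0.000887). Unc5b, a netrin receptor of axon guidance, rose from 329 and 308 CPM to 450 and 426 CPM (0.46 ± 0.09, adjusted p = 0.00368). It was the only member called of 27 tested in the list of axon guidance and adhesion genes (3.7%, beside 2.73% of all genes).

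The largest falls at 10 CPM or more were of Nek1, Alkbh8, Wnk3, Atr, Zfp770, Tmtc3, Npat, Clk1, Snx13, Zfp62, Stag2 and Ccar1, with log2 fold changes from -1.38 to -0.94. Nek1, a kinase of cilia and the DNA damage response in which variants raise the risk of ALS, was at 30.2 and 22.5 CPM with GFP and at 11.2 and 8.98 CPM with A315T. The change was -1.38 ± 0.28 (adjusted p = 0.00493), and it held without GFP replicate 1 (-1.71, adjusted p = 0.0101) and with base composition offsets (-1.09, adjusted p = 0.00918). Atr, the kinase that signals stalled replication, was at 41.7 and 31.0 CPM with GFP and at 18.7 and 14.3 CPM with A315T (-1.14 ± 0.23, adjusted p = 0.00576). Stag2, a cohesin subunit, was at 64.5 and 34.0 CPM with GFP and at 26.2 and 23.8 CPM with A315T (-0.96 ± 0.21, adjusted p = 0.0104). Ccar1, a coactivator of transcription and apoptosis, fell from 75.9 and 38.7 CPM to 36.4 and 22.7 CPM (-0.94 ± 0.19, adjusted p = 0.00439). These genes share a low G+C content, with 37.4% to 42.4% of exonic bases against a median of 50.1% over all genes tested. Without GFP replicate 1, Nek1, Atr and Ccar1 of these 12 passed. With offsets for base composition Nek1, Stag2 and Ccar1 passed, and the other 9 had adjusted p values from 0.0516 to 0.234.

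**Figure D2:**
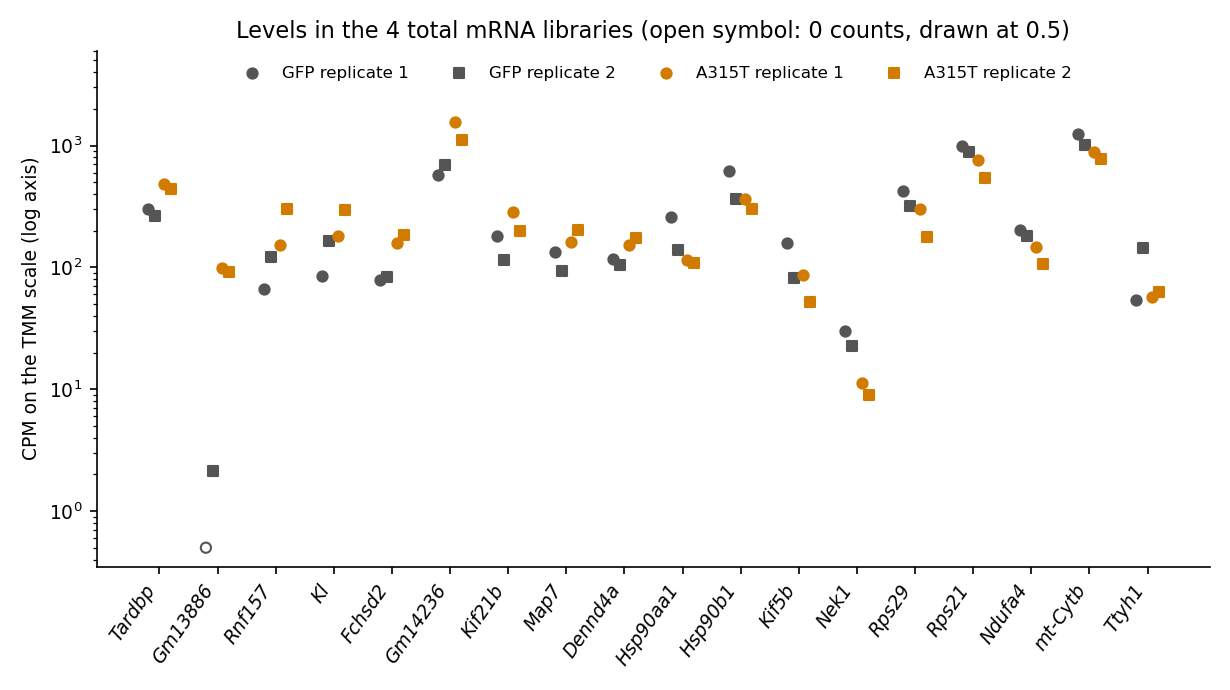
Levels of 18 genes in the 4 total mRNA libraries, in CPM on a log axis, with GFP in grey and hTDP-43 A315T in orange, circles for replicate 1, squares for replicate 2 and an open symbol for 0 reads. Gm13886 is near 0 with GFP and above 90 CPM with A315T, and Ttyh1 shows 1 GFP library at 145 CPM above the other 3 at 54.4 to 62.9 CPM.

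Of the gene lists looked at, cytosolic ribosomal proteins had the most members that fell. All 81 listed genes were tested, and 28 fell (34.6%) and 0 rose, beside 1.68% of all genes that fell. Their median log2 fold change was -0.32, beside 0.00 over all genes, and 78 of 81 were negative. Rps29, a protein of the small subunit, was at 426 and 321 CPM with GFP and at 304 and 178 CPM with A315T (-0.66 ± 0.10, adjusted p = 0.000152). Rps21 was at 988 and 891 CPM with GFP and at 757 and 544 CPM with A315T (-0.54 ± 0.09, adjusted p = 0.000614). Rpl41, the smallest protein of the large subunit, fell from 933 and 786 CPM to 693 and 515 CPM (-0.52 ± 0.09, adjusted p = 0.000646). In each of these genes both A315T libraries lay below both GFP libraries, and the same held for Rps15, Rpl22 and Rps27a, with changes of -0.52, -0.55 and -0.49. The size of the shift differed between the dates, with a median over the 81 genes of -0.12 at replicate 1 and -0.45 at replicate 2. Ribosomal protein mRNAs are short, with a median exon length of 1535 bases against 4061 over all genes, but not poor in G+C (50.7%). With base composition offsets 41 of the 81 fell, and with offsets for composition and length 33 fell, at a median of -0.21. In the 6-library fit 13 fell, and without GFP replicate 1, 7 fell.

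Subunits of the respiratory chain that are encoded in the nucleus shifted alike. Of 75 tested 13 fell (17.3%) and 0 rose, with a median of -0.28, and 57 were negative at both dates, beside 30.3% of all genes. Ndufa4, a subunit of cytochrome c oxidase, was at 204 and 182 CPM with GFP and at 147 and 107 CPM with A315T (-0.61 ± 0.11, adjusted p = 0.00180). Cox7b, another subunit of that complex, fell from 132 and 98.1 CPM to 83.8 and 58.7 CPM (-0.69 ± 0.13, adjusted p = 0.00339). Atp5k, a subunit of the ATP synthase, fell from 108 and 97.3 CPM to 70.5 and 53.9 CPM (-0.72 ± 0.14, adjusted p = 0.00377). Cox6b1 and Atp5e changed by -0.56 and -0.48. Uqcrq of complex III was at 474 and 421 CPM with GFP and at 358 and 304 CPM with A315T (-0.44 ± 0.09, adjusted p = 0.00495). The median exon length was 1495 bases, and with both offsets 11 of the 75 fell at a median of -0.20, while 6 fell in the 6-library fit and 2 without GFP replicate 1. Of 11 genes tested on the mitochondrial chromosome, mt-Cytb, of complex III, fell from 1248 and 1016 CPM to 893 and 772 CPM (-0.44 ± 0.08, adjusted p = 0.00279), and mt-Nd4, of complex I, from 458 and 381 CPM to 314.9 and 330 CPM (-0.38 ± 0.09, adjusted p = 0.0242). Their direction depended on the scaling: mitochondrially encoded genes have a median G+C of 35.8%, their median change was -0.26 in the fit without offsets and 0.06 with G+C offsets, where 2 rose and 0 fell, and mt-Nd4 turned from -0.38 to 0.03.

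Summed over the list, ribosomal protein mRNAs held 28518 and 29363 CPM with GFP and 25647 and 22503 CPM with A315T, on the scale of all 6 MN1 total mRNA libraries. With hTDP-43 the sums were 26843 and 30187 CPM, of which 1 lay below and 1 above the GFP range. Nuclear-encoded respiratory chain mRNAs summed to 18972 and 19023 CPM with GFP, to 18390 and 19340 CPM with hTDP-43 and to 18151 and 16622 CPM with A315T. For both lists the A315T libraries had the lowest sum of their date.

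**Figure D3:**
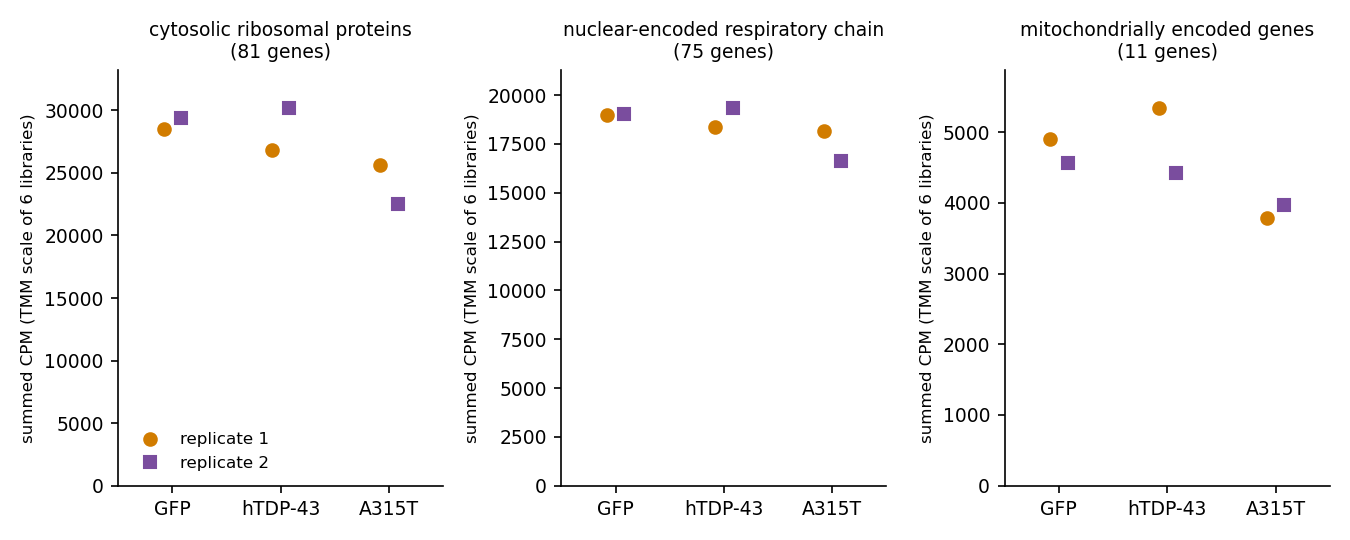
Summed CPM of cytosolic ribosomal protein genes, nuclear-encoded respiratory chain genes and mitochondrially encoded genes in the 6 MN1 total mRNA libraries, by transfected plasmid, with circles for replicate 1 and squares for replicate 2. Each A315T library lies below the GFP and hTDP-43 libraries of its own date in all 3 lists.

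Molecular chaperones included some of the larger falls among well expressed mRNAs. Hsp90aa1, the inducible cytosolic HSP90, was at 259 and 139 CPM with GFP and at 116 and 109 CPM with A315T (-0.79 ± 0.13, adjusted p = 0.000806). The fall was -1.15 at replicate 1 and -0.34 at replicate 2, and without GFP replicate 1 it was -0.61 with an adjusted p of 0.0550. Hsp90b1, the HSP90 of the endoplasmic reticulum, fell from 624 and 367 CPM to 363 and 300 CPM (-0.55 ± 0.10, adjusted p = 0.00182), and here GFP replicate 2 and A315T replicate 1 were nearly equal. Hspe1, the mitochondrial cochaperonin, fell from 220 and 187 CPM to 154 and 140 CPM (-0.47 ± 0.10, adjusted p = 0.00995). Among cytosolic heat shock proteins 3 of 19 tested fell, with Chordc1 (-0.78) as the other member, and 0 rose (median -0.08, beside 1.68% of all genes that fell), and among genes of the unfolded protein response Hsp90b1 was the 1 call of 22 (median 0.04). Without GFP replicate 1 none of these 4 chaperone genes passed, with adjusted p values of 0.223 for Hsp90b1, 0.331 for Hspe1 and 0.461 for Chordc1. None of 29 tested genes of the integrated stress response passed (median 0.04).

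RNA-binding proteins moved in both directions. Of 56 hnRNP and SR splicing factors tested, 6 fell and 2 rose, beside 1.68% and 1.05% of all genes, with a median of -0.15. Without GFP replicate 1, 0 of them passed. Hnrnpa3 fell by 0.51 on the log2 scale. Srsf10, a splicing factor, fell from 175 and 95.6 CPM to 84.8 and 75.6 CPM (-0.73 ± 0.14, adjusted p = 0.00366). Matr3, a nuclear matrix RNA-binding protein mutated in ALS, fell from 104 and 50.1 CPM to 42.6 and 44.4 CPM (-0.79 ± 0.19, adjusted p = 0.0196). Hnrnpa2b1, which carries mutations in multisystem proteinopathy, fell from 645 and 512 CPM to 524 and 392.2 CPM (-0.34 ± 0.09, adjusted p = 0.0260). Khsrp, which promotes decay of AU-rich mRNAs, rose from 253 and 256 CPM to 334 and 340 CPM (0.41 ± 0.09, adjusted p = 0.0122), and so did Hnrnpa0 (0.33). With base composition offsets 0 of the 56 fell and 1 rose, and the median was 0.03. In the list of stress granule and RNA decay genes, Fmr1, the fragile X protein gene, fell from 73.2 and 40.8 CPM to 34.0 and 26.4 CPM (-0.90 ± 0.19, adjusted p = 0.00690), Fxr1 fell by 0.51 on the log2 scale, and Upf1, the helicase of nonsense-mediated decay, rose by 0.40. None of these 3 passed with base composition offsets. Of 46 translation factors, Eif3e, Eif3a, Eif5 and Etf1 fell, with log2 fold changes of -0.45, -0.42, -0.43 and -0.34, and 0 rose, beside 1.68% of all genes that fell. With both offsets 1 translation factor fell, and without GFP replicate 1 Eif3e, Eif3a, Eif5 and Etf1 had adjusted p values of 0.184, 0.496, 0.184 and 0.574.

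Of 32 tested genes linked to ALS and FTD, Tardbp rose and Nek1, Matr3 and Hnrnpa2b1 fell (12.5% called, beside 2.73% of all genes), with a median of -0.06. The Tardbp count can hold reads of the plasmid, in this list and in the next. Among 21 tested mRNAs known to be regulated by TDP-43, Tardbp and Poldip3 rose and 0 fell, beside 1.05% of all genes that rose. Poldip3, whose splicing TDP-43 controls, was at 199 and 215 CPM with GFP and at 257 and 269 CPM with A315T (0.34 ± 0.09, adjusted p = 0.0422). The median of this list was 0.17, with 18 of 21 values positive and 13 of them positive at both dates. With both offsets 1 member passed, Tardbp, and the median was 0.09.

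Genes of axonal transport and the cytoskeleton gave 3 rises and 1 fall among 42 kinesins, dynein and dynactin genes (9.52% called, beside 2.73% of all genes). Kif21b, a kinesin of neurons, rose from 180 and 114 CPM to 285 and 199 CPM (0.73 ± 0.10, adjusted p = 5.64e-05). Kif1a, the motor of synaptic vesicle precursors, rose from 131 and 142 CPM to 152 and 214 CPM (0.42 ± 0.11, adjusted p = 0.0368), and Kif26a by 0.39. Kif5b, the heavy chain of conventional kinesin, fell from 160 and 82.4 CPM to 87.1 and 52.3 CPM (-0.79 ± 0.13, adjusted p = 0.000936). Map7, a microtubule-binding protein that recruits that kinesin, rose from 134 and 92.6 CPM to 162 and 202 CPM (0.70 ± 0.14, adjusted p = 0.00362), with 0.27 at replicate 1 and 1.12 at replicate 2. Map1a rose by 0.48, and Stmn1, which destabilises microtubules, fell by 0.33 on the log2 scale. Kif21b, Map7 and Kif5b passed also with both offsets.

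Other neuronal genes changed singly. Ttyh3, a chloride channel, rose from 404 and 417 CPM to 572 and 546 CPM (0.44 ± 0.09, adjusted p = 0.00378), and Hcn2, a pacemaker channel, by 0.36. Ttyh1 was called a fall (-0.65 ± 0.18, adjusted p = 0.0427) although its 4 values overlapped, with 54.4 and 145 CPM with GFP and 57.5 and 62.9 CPM with A315T and within-date changes of 0.08 and -1.20. It turned to 0.18 without GFP replicate 2 in the 6-library fit, so that GFP library decides its direction. Syn1, a synaptic vesicle protein, rose from 48.4 and 45.0 CPM to 71.2 and 69.2 CPM (0.59 ± 0.16, adjusted p = 0.0396). It was the 1 call among 32 tested genes of vesicle release (3.12%, beside 2.73% of all genes). With base composition offsets Ttyh3 and Ttyh1 passed, and Hcn2 and Syn1 did not (adjusted p = 0.588 and 0.115). None of 9 tested genes of motor neuron identity passed, and their median was 0.21.

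Cell cycle and signalling lists had few calls. The share of tested members called went from 2.63% (proteasome) to 20% (iron-responsive elements, 10 tested), beside 2.73% of all genes. Cenpf, a kinetochore protein, fell from 82.0 and 48.0 CPM to 52.1 and 24.3 CPM (-0.78 ± 0.17, adjusted p = 0.0107), and Ect2 by 0.51 on the log2 scale. They were 2 of 50 mitotic genes, of which 35 were negative (median -0.20, and -0.10 with G+C offsets). Slc16a3, the lactate exporter, rose from 315.1 and 380 CPM to 416 and 537 CPM (0.45 ± 0.09, adjusted p = 0.00378), the 1 call of 31 glycolysis and hypoxia genes (median 0.10). Kmt2d and Kdm6b, which set and remove histone H3 methyl marks, rose by 0.46 and 0.41 among 68 chromatin regulators. Flna, an actin crosslinker, Lrp5, a Wnt coreceptor, Ski, an inhibitor of SMAD signalling, and Stk11, the kinase LKB1, each rose, by 0.32, 0.50, 0.48 and 0.35. Rps6kb1, the S6 kinase, fell by 0.78 on the log2 scale, Psmc6, the 1 call among 38 proteasome genes, by 0.64, and Nr1d2 of the clock by 0.59. Tfrc and Ireb2 fell by 0.39 and 0.57 among 10 tested mRNAs with iron-responsive elements, and of 37 aminoacyl-tRNA synthetases Vars rose by 0.31 and Dars fell by 0.36. Of these cell cycle and signalling genes, Cenpf, Slc16a3, Kmt2d and Lrp5 passed with base composition offsets. The others named here did not, with adjusted p values in that fit from 0.103 for Ski to 0.870 for Dars.

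Of the 42 lists, 26 had a call and 16 had none. The lists without a call were those of cholesterol synthesis (median 0.02), fatty acid synthesis (0.12), the integrated stress response, NRF2 (0.06), p53 (-0.02), interferon (-0.03) and NF-kB targets (-0.03), immediate-early genes (0.04), extracellular matrix (0.10), DNA replication (-0.03), histones (0.10), neuronal intermediate filaments (0.08), autophagy and lysosome (-0.01), polyamines (0.09), Hox genes (0.03) and motor neuron identity. A gene that did not pass was not shown to be unchanged.

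**Figure D4:**
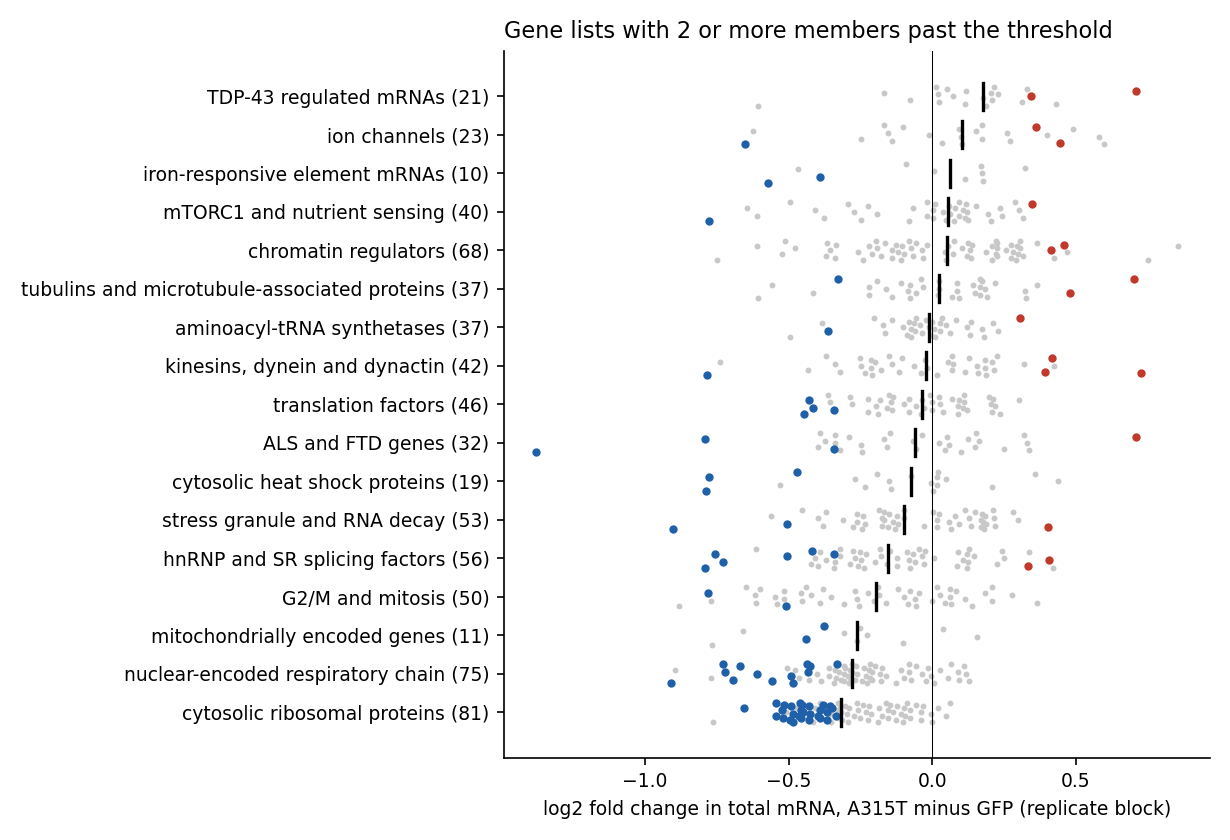
Log2 fold change of A315T minus GFP for each tested member of the gene lists with 2 or more calls, with the number tested after each name, blue for members that fell, red for members that rose, grey for those that did not pass and a black bar for the median. Ribosomal proteins and the nuclear-encoded respiratory chain have medians of -0.32 and -0.28, with 28 of 81 and 13 of 75 members that fell, while the other nuclear lists have medians between -0.20 and 0.17.

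All 11 called genes without a protein-coding annotation rose, 2 of them without an entry in the GENCODE release used. Of the 10361 genes tested, 10176 were protein-coding, as were 98 of the 109 that rose and 174 of the 174 that fell. Over all genes tested 1.05% rose and 1.68% fell. Gm14236, annotated as antisense to Ripor3 (chr2:168010529-168011506), was at 578 and 686 CPM with GFP and at 1564 and 1116 CPM with A315T (1.06 ± 0.11, adjusted p = 1.42e-07). The counts were made without strand, so reads of Ripor3 cannot be told from it. Gm15189, a processed pseudogene, rose from 34.3 and 22.5 CPM to 88.2 and 43.9 CPM (1.18 ± 0.19, adjusted p = 0.000406). Gm23935, a short gene of 57 bases within Zc3h7a, was at 2799 and 7082 CPM with GFP and at 7187 and 9474 CPM with A315T (0.88 ± 0.12, adjusted p = 3.95e-05), and without GFP replicate 1 the change was 0.46 (adjusted p = 0.178). Fragments at a ribosomal RNA repeat on chromosome 17 moved with it. CT010467.1, annotated as rRNA, was at 9225 and 21884 CPM with GFP and at 19451 and 22882 CPM with A315T, a change of 1.08 at replicate 1 and 0.06 at replicate 2 (0.57 ± 0.13, adjusted p = 0.0107). Here GFP replicate 1 was low and the other 3 libraries were close to each other, and without that library the change was 0.15 (adjusted p = 0.847). The neighbouring Gm26917 and Gm42418 rose by 0.85 and 0.97 with the same library low, and without it their changes were 0.63 (adjusted p = 0.0472) and 0.57 (adjusted p = 0.438). Gm37590 and ENSMUSG00000030771 rose by 1.27 and 0.85. The authors removed reads that aligned to annotated non-coding RNAs before mapping, and what part this step has in these values was not tested.

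A feature that the called genes shared was base composition. Genes that rose had a median exonic G+C content of 56.5%, genes that fell 42.1% and genes that did not pass 50.2%. Over all genes tested the median log2 fold change went from -0.32 in the decile of lowest G+C (31.9% to 41.9%) to 0.18 in the decile of highest (58.1% to 73.9%). The lowest decile held 85 of the 174 falls and 4 of the 109 rises, the highest 4 falls and 41 rises. The gradient was present at both dates, from -0.45 to 0.25 at replicate 1 and from -0.17 to 0.10 at replicate 2. Relative to the mean of the 6 MN1 total mRNA libraries, the lowest decile lay at 0.33 in GFP replicate 1 and 0.29 in hTDP-43 replicate 1, and between -0.23 and -0.07 in the other 4 libraries. By exon length, the median was -0.13 in the shortest decile (up to 1570 bases) and -0.03 to 0.03 in the others. The shortest decile held 41 of the 174 falls and 6 of the 109 rises, and its median was -0.05 at replicate 1 and -0.22 at replicate 2.

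The fit was repeated with an offset for each library and gene that follows G+C content, an alternative chosen after the gradient was seen. It called 238 genes (2.30%), 73 that rose (0.705%) and 165 that fell (1.59%), of which 119 were among the 283, that is 42.0% of the calls without offsets and 50.0% of those with them. With offsets for G+C content and exon length 193 genes passed (1.86%), 77 that rose (0.743%) and 116 that fell (1.12%), 110 of them among the 283. Gm13886, Tardbp, Rnf157, Kl, Fchsd2, Gm14236, Gm15189, Kif21b, Map7, Dennd4a and Nek1, as well as the 6 named ribosomal protein genes, passed in each of the 3 fits. With 1 library per culture, library preparation and the cells cannot be told apart as the place where the gradient arose, and the index sequence in the labels is the same for a group at both dates.

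**Figure D5:**
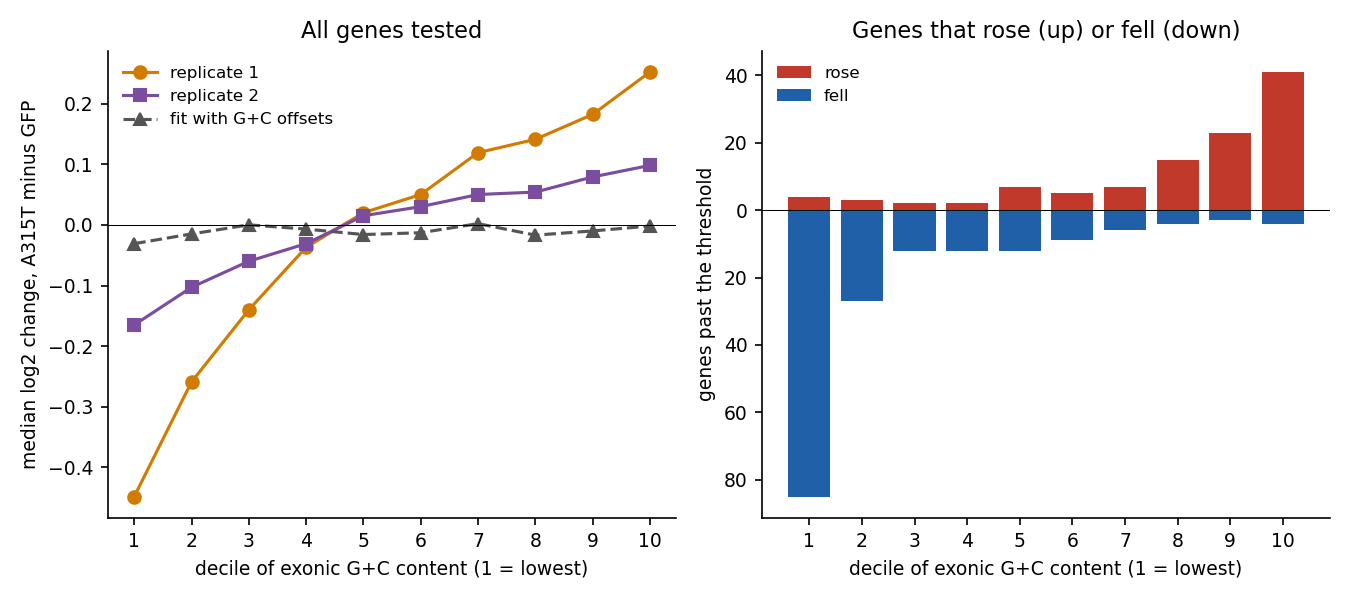
Left, median log2 change of A315T minus GFP by decile of exonic G+C content at each culture date and in the fit with G+C offsets. Right, number of genes that rose (above 0) or fell (below 0) in each decile, with 85 falls in the lowest and 41 rises in the highest decile.

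The mutant was compared with the wild-type protein directly. A315T against hTDP-43 in total mRNA gave 76 of 10080 genes (0.754%), 56 higher (0.556%) and 20 lower (0.198%) with A315T, of which 36 also passed against GFP in the same direction. Both comparisons use the same A315T libraries, so neither this overlap nor the list medians below are independent of the values against GFP. Fchsd2 (1.46), Kif21b (1.34), Map7 (1.21), Gm15189 (1.47) and Dach1 (1.58) were higher with A315T than with hTDP-43, with adjusted p values from 2.08e-06 to 0.00879. For these 5 genes hTDP-43 minus GFP was below 0, from -0.24 to -0.75, and for Gm15189 it was -0.24 ± 0.24, with hTDP-43 at 24.8 and 23.1 CPM beside GFP at 34.3 and 22.5 CPM. Rnf157 was higher by 0.62 (adjusted p = 0.0116) and Kl by 0.70 (adjusted p = 0.00563). Rps29 (-0.67, adjusted p = 0.00744) and Kif5b (-0.82, adjusted p = 0.00781) were lower with A315T. Of the 81 ribosomal protein genes 4 were lower and 0 higher, with a median of -0.27, and of the 75 respiratory chain genes 2 were lower and 0 higher, with a median of -0.20. Beside these values, hTDP-43 minus GFP, which shares the GFP libraries with the comparison above and was not tested, had medians of -0.03 and -0.02 in these lists. Genes that did not pass here were not shown to be alike between mutant and wild type, Tardbp and Gm13886 included.

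Footprints of the same groups and dates were set beside these changes, and in them 54 of 8659 genes passed (0.624%), 39 that rose (0.45%) and 15 that fell (0.173%). Of the 109 genes that rose in mRNA, 103 were tested in footprints and 83 had the same sign, with 8 past the threshold in the same direction and 1 in the opposite one. Of the 174 that fell, 172 were tested and 131 had the same sign, with 3 past the threshold in the same direction and 1 in the opposite one. How often genes at large share their sign between mRNA and footprints was not counted. Since both library types come from the same groups and dates, the shared signs are no separate support for the calls. Footprints of Kl rose by 1.41 (adjusted p = 1.07e-06), of Rnf157 by 1.03 (adjusted p = 7.95e-06), of Gm14236 by 0.89 (adjusted p = 8.25e-05) and of Gm13886 by 4.34 (adjusted p = 7.92e-07). Fchsd2 was at 0.23 in footprints (adjusted p = 0.885) and Kif21b at 0.06 (adjusted p = 0.985). Footprint levels of Kl were 2485 and 2088 CPM with GFP and 5104 and 7203 CPM with A315T. In the same order, Rnf157 was at 1614, 2508, 3883 and 4345 CPM. Gm14236 was at 40541, 15257, 70339 and 30245 CPM. These levels were far above those in total mRNA, and what reads make them up was not tested. The ribosomal protein list had a median of -0.05 in footprints, with 1 of 81 that fell, and the respiratory chain list of 0.01 with 0 calls. The test of the difference between footprints and mRNA passed for 2 of 10081 genes (0.0198%), Camta1 and Dennd4a. With a block by library type 22 passed (0.218%), 14 higher (0.139%) and 8 lower (0.0794%) in footprints.

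The 4 genes that the study followed for translation gave these values in total mRNA. Dennd4a, an exchange factor of Rab GTPases, was at 117 and 104 CPM with GFP and at 152 and 173 CPM with A315T, and it rose by 0.56 ± 0.12 (adjusted p = 0.00737). Its footprints rose by 1.78, a difference from mRNA of 1.28 (adjusted p = 0.0161). In total mRNA, Dennd4a did not pass in edgeR's test without the block (adjusted p = 0.849) or in DESeq2 with the block (adjusted p = 0.9996). The paper, which used DESeq, kept as hits those genes that changed in footprints and not in total mRNA. By qRT-PCR on the input of its polysome gradients, a separate experiment scaled to ribosomal RNA, it saw no significant change of Dennd4a mRNA. In those gradients it found Dennd4a mRNA in heavier fractions with A315T. Camta1, a transcription activator, was at 18.1 and 82.8 CPM with GFP and at 17.02 and 95.1 CPM with A315T, so that the dates differed far more than the groups (0.13 ± 0.18, adjusted p = 0.778). Its footprints rose by 2.31, a difference of 2.06 (adjusted p = 0.000395). Mid1ip1, also named Mig12, was at 167 and 187 CPM with GFP and at 198 and 202 CPM with A315T (0.17 ± 0.10, adjusted p = 0.382). Its footprints rose by 1.25 (adjusted p = 2.12e-05), and the difference from mRNA was 1.14 (adjusted p = 0.982). Pth1r, a receptor of parathyroid hormone, was at 14.8 and 13.6 CPM with GFP and at 19.4 and 24.8 CPM with A315T (0.65 ± 0.27, adjusted p = 0.204), and its footprints rose by 1.41 (adjusted p = 0.000747), a difference of 0.94 (adjusted p = 0.982).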

How the data were processed

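Total mRNA was poly(A) selected, fragmented and size selected like the footprints. Per the labels and the file headers, the authors clipped adapters with cutadapt 1.8.1, removed reads that Bowtie2 aligned to non-coding RNAs, mapped the rest to GRCm38 with TopHat2 and counted exon reads per gene with featureCounts 1.4.4, without strand, and the deposited values are raw counts, neither normalized nor pooled. No pair of libraries held identical counts. Of 45513 genes, 44671 were named through GENCODE M21, and exonic G+C was read from GRCm38.

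Counts were tested with edgeR 4.0.16 in R 4.3.3 (filterByExpr with a minimum count of 10, TMM, quasi-likelihood test, Benjamini-Hochberg over all genes tested, threshold 0.05) on the 4 libraries, with the replicate number as a block. Libraries of the same number carry the same date in the labels, and their deviations from the group means correlated with r = 0.395 across genes. Cultures are separate dates, and the block takes up the spread between them that both groups share. The p-values thus set the fitted change from GFP to A315T against how far that change differed between the 2 dates. This spread was moderated across genes, with a prior of 29.75 degrees of freedom, so it rests mostly on the other genes. Each standard error was taken from the size of the fitted change over the root of its F statistic. A315T against hTDP-43 and the interaction with footprints were fitted likewise. A within-date value is the difference of log2 CPM with a prior count of 2. Offsets were splines with 5 degrees of freedom. Alternatives included DESeq2 1.42.0 and other filters and scalings. The alignment of Gm13886 and Tardbp was made with blastn 2.17.0. Counting limits cover counting error only.

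Genes were named by rule: those the study followed, the 12 largest calls per direction at 10 CPM or more with 1 sign at both dates, the 3 highest expressed per direction, up to 6 calls per list by p (of lists without a call no member is named), the 3 non-coding calls of smallest p, and up to 6 calls of smallest p without the block. Members and lists were chosen with earlier results of these data known. On simulated counts with 200 changed genes among 10329, the fit with the block recovered 97.0% of changes of 1 and 45.0% of changes of 0.5 on the log2 scale, DESeq2 53.0% and 5.00%, and the fit without the block 0%. Of 154 calls with the block, 12 were false. The simulated dates shifted both groups alike, with a dispersion near that of the fit with the block and no G+C gradient. These settings favour the block, so the recovery does not rank the fits on the real libraries.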

Additional observations from a re-analysis of the deposited data

Results flagged for a closer look

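For 2 genes the response to hTDP-43 A315T in footprints differed from that in total mRNA, by edgeR's quasi-likelihood test of that difference. For Camta1 the difference was 2.06 on the log2 scale (adjusted p = 0.000395), with total mRNA at 0.13 and footprints at 2.31. Camta1 footprints numbered 28 and 86 reads with GFP and 69 and 324 reads with A315T. Scaled to library size they were at 29.5 and 96.6 CPM with GFP and at 59.5 and 624 CPM with A315T. The level in A315T replicate 2 was thus far above the others. For Dennd4a the difference was 1.28 (adjusted p = 0.0161), with total mRNA at 0.56 and footprints at 1.78. It had 146 and 70 footprint reads with GFP (154 and 78.6 CPM) against 507 and 190 with A315T (437 and 366 CPM).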

How the results depend on the processing

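With 2 cultures per group, the count of genes depended on the fit. Without the replicate block A315T against GFP gave 1 gene with 4 libraries, 1 with 6 and 3 with G+C offsets, and DESeq2 gave 3 with the block and 3 without it. Other counts were 134 with no filter on low counts, 112 with all 6 libraries, 141 with 6 libraries and G+C offsets, and 139 without GFP replicate 1 in that last fit. Leaving out 1 library gave 3 to 940 genes: 262 and 3 without A315T replicate 1 (with and without the block), 940 and 3 without A315T replicate 2, 63 and 36 without GFP replicate 1, and 78 and 256 without GFP replicate 2. Fits that left 1 sample in a group assumed that it varied like the others. The offsets, and the fits named with them, were chosen after seeing the data, and the share of calls that rose was 38.5% without offsets, 30.7% with G+C offsets, 39.9% with G+C and length offsets, 26.2% with G+C offsets over 6 libraries and 41% with those but without GFP replicate 1.

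A315T against hTDP-43 gave 0 genes without the block, with 4 or 6 libraries, 181 with no filter, 131 at a minimum count of 30, 9 and 11 with DESeq2 with and without the block, 141 over protein-coding genes and 197 with G+C offsets, and 17 to 578 when 1 library was left out (217 and 20 without A315T replicate 1, with and without the block, 578 and 17 without A315T replicate 2, 206 and 334 without hTDP-43 replicate 2). The interaction gave 22 genes with a block by library type, 0 without a block, 1 with RLE normalization, 15 with no filter and 0 with DESeq2.

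Some genes changed sign. Camta1 was at -0.62 and -1.62 without A315T replicate 2 (with and without the block), -0.025 and -0.64 without GFP replicate 1, -0.00 with G+C and length offsets, -0.051 with G+C offsets and no block, -0.016 with G+C offsets and without GFP replicate 1, and -0.087 at date 1. Without GFP replicate 1 and with no block, CT010467.1 was at -0.039 and Eif3a at 0.22. With G+C and length offsets mt-Cytb was at 0.064 and mt-Nd4 at 0.19, and with G+C offsets mt-Nd4 was at 0.032, at 0.025 without the block, at 0.033 with 6 libraries and at 0.004 without GFP replicate 1. Ttyh1 was at 0.18 and 0.14 without GFP replicate 2 (with and without the block) and at 0.079 at date 1. The cause of these changes was not tested.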
